A study of Mus musculus with 12 samples.

Results

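The genes described here are those of the hepatic stellate cell and of the extracellular matrix of the liver, followed through non-cancerous liver and hepatocellular carcinoma (HCC) of mice with and without deletion of survivin. The list of 38 gene symbols was matched to the gene names on the array, and all 38 were found among 34844 names. All 38 also passed the filter on dim probes, which kept 26506 genes. By role they are genes of the quiescent stellate cell, contractile genes, receptors for platelet-derived growth factor (PDGF), collagens of 3 kinds, other structural proteins, small proteoglycans, matricellular proteins, crosslinking enzymes, metalloproteinases, their inhibitors and the TGF-beta ligand.

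Stellate cells lie between hepatocytes and sinusoidal endothelium, where in the resting state they store vitamin A as retinyl esters. After injury they lose these stores, take on a contractile phenotype under TGF-beta and PDGF signals and become the main source of fibrillar collagen in the scarred liver. Matrix is laid down as collagens and glycoproteins, stiffened by lysyl oxidases, cut by matrix metalloproteinases and protected by the tissue inhibitors of metalloproteinases (TIMPs).

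Transcripts were measured on 12 single-colour Agilent arrays in 4 groups of 3. All came from male mice of strain 129/SV/B6 that had received N,Nitrosodiethylamine (DEN), a liver carcinogen, at 50 mg/kg when 2 weeks old, and poly(IC), an inducer of interferon, 8 months later. In all groups tissue was taken 1 week after poly(IC), which was 2 months after the mice had undergone irradiation and a transplant of bone marrow. Mx-liver is non-cancerous liver and Mx-tumor is HCC of Cre-negative (Mxcre-) mice with intact survivin, so these controls had the carcinogen, poly(IC), irradiation and transplant too. Mx+liver and Mx+tumor are the same tissues of Mxcre+ mice, in which survivin was deleted. Mxcre+ mice with intact survivin are not among the 4 groups, so presence of Cre and loss of survivin cannot be told apart. Deletion stands for both in the comparisons below. The Mx promoter responds to interferon and is active in liver and blood cells rather than in stellate cells alone. Whether arrays stand for different mice, or liver and tumour for one mouse, is not stated in the labels, so p-values measure only the spread between these samples, which may be technical. Liver without these treatments was not analysed here.

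Levels are log2 signals relative to the 75th percentile of their array, so 0 is the level of that percentile, and values are listed in the order of replicates 1, 2 and 3. A level belongs to its own probe and is not comparable between genes. Replicate 1 of each group lay on slide 1 and replicates 2 and 3 on slide 2. The 75th percentile itself was 1131 to 1766 signal units on slide 1 and 3343 to 3906 on slide 2, and slide was a block in every fit unless said otherwise. Between 47.6% (Mx-liver replicate 1) and 83.0% of probes were well above background and 0 were saturated. 8 members missed that mark on 1 or 2 arrays. They were Hgf (2 tumour arrays), Eln (1 Mx-liver and 1 Mx-tumor array), Postn (1 Mx-tumor array) and Col5a2, Col6a2, Thbs2, Lox and Mmp2 (1 Mx-liver array each). The hepatocyte list averaged 4.93 to 5.54 across the 12 arrays, with 10 of 10 genes measured.

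The identity of a pair of arrays is in doubt. In the deposited value table the columns labelled Mx+liver replicate 1 and Mx-tumor replicate 1 each match the other's scanner file (r = 1) better than their own (r = 0.964 and 0.970, across probes). The labels of the scanner files were kept, and for the counts of members and for the single genes named, values with the 2 arrays exchanged or without both are given beside them where stated. Birc5, which encodes survivin, was lower by -1.08 in Mx+tumor than in Mx-tumor and by -0.96 in Mx+liver than in Mx-liver (log2; two-sided exact permutation p = 0.1 and 0.5, and 3 against 3 arrays can give no p below 0.1). With the arrays exchanged the differences were -1.62 and -1.50 (exact p = 0.1 and 0.3). In the limma fit with slide as a block, the unadjusted p was 0.149 and 0.195 as labelled. With the arrays exchanged it was 0.00458 and 0.00715 (limma adjusted p = 0.439 and 0.503). The exact test takes no account of slide, and Birc5 in liver was higher on slide 1. Within each slide Mx+liver was below Mx-liver, with -0.10 and -1.07 against 0.51 and 0.76 on slide 2. On slide 1 Birc5 read 2.85 in Mx-liver, 2.42 in the library labelled Mx+liver, 0.80 in that labelled Mx-tumor and 0.06 in Mx+tumor. Another array, Mx+liver replicate 3, stood apart by genes of other tissues. Its mean was 1.66 over the skeletal muscle list (4 of 5 genes measured) against -4.82 to -3.05 on the other 11 arrays, and 3.14 over the adipocyte list (4 of 4) against -3.32 to -0.73. Of these muscle genes, Ckm and Myh4 were well above background on 5 of 12 arrays, Acta1 on 11 and Tnnt3 on 12. Mx+liver replicate 3 was also the highest of slide 2 for 4 of 5 mesothelial and 3 of 6 portal fibroblast markers, against 10.6% of all genes.

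The 3 promoters below belong to Timp1, the member with the smallest p in the comparisons of tissue, and to Lrat and Ngfr, genes of the resting stellate cell with lower estimates in tumour. Each line is the 250 bases before the start of the gene in RefSeq (GRCm38.p6), 5′ to 3′ on the gene's own strand, and capitals mark the GC box, a site bound by Sp1 (GGGCGG on either strand). The windows are chrX:20869916-20870165 (plus strand) for Timp1, chr3:82903975-82904224 (minus) for Lrat and chr11:95587699-95587948 (minus) for Ngfr.
Timp1: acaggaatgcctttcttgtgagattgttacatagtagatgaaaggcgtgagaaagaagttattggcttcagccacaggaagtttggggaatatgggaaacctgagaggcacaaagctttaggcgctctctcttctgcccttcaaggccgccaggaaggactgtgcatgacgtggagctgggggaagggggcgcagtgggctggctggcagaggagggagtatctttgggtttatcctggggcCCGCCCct
Lrat: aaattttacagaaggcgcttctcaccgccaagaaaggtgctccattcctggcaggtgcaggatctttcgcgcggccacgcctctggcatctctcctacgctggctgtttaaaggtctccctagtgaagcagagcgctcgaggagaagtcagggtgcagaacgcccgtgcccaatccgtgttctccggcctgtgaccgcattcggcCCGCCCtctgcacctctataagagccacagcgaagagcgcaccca
Ngfr: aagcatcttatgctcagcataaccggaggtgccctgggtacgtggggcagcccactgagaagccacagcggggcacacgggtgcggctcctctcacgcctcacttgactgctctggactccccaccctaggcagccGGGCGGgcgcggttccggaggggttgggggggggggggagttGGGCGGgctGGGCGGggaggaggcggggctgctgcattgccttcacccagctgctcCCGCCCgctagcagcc

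The GC box was found 1 time for Timp1, 1 time for Lrat and 4 times for Ngfr. The letters of the AP-1 motif (TGANTCA), a STAT motif (TTCNNNGAA) and the TATA box (TATAAA), searched on both strands, were not in these 3 windows. Of the 38 members 25 had a promoter in the table, with 28 promoters in all. Among these 25 genes 16 held a GC box in at least 1 promoter, 1 an AP-1 motif, 0 a STAT motif and 3 a TATA box. Of all 32851 promoters in the table, 32.7%, 6.75%, 7.02% and 12.4% did. Members were counted by gene and the whole table by promoter, so the units differ and the shares are not directly comparable. A match is a run of letters and not a binding site shown by these data.

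The first comparison asked how tumour differed from non-cancerous liver in Cre-negative mice. Of 5 genes of the resting stellate cell 4 had estimates below 0 in Mx-tumor against Mx-liver, and Lrat and Ngfr had an unadjusted p under 0.05. The small proteoglycans were below 0 in 3 of 3 genes, and Lum and Dcn had such a p. The fibrillar collagens had a median near 0 (-0.08), and the estimate for Timp1 was 4.56-fold higher. By limma with Benjamini-Hochberg adjustment over all 26506 genes, 0 members and 0 genes passed an adjusted p of 0.05, here and in each of the other 4 comparisons. At an unadjusted p under 0.05 stood 7 members (6.09% of all genes), of which 1 was higher (3.66% of all genes) and 6 were lower (2.43% of all genes). One of the 6, Hgf, passed the filter on dim probes only through the liver groups, where it was brighter. A difference above 0 was found for 10 of 38 members, against 55.4% of all genes, and the median was -0.17 over members and 0.04 over all genes. With the 2 arrays in doubt exchanged 17 of 38 were above 0 (53.9% of all genes), and without both 13 of 38 (51.2%). After the exchange 8 members had an unadjusted p under 0.05 by limma, against 11.5% of all genes. Of these 2 were higher (7.49% of all genes) and 6 lower (4.02%). Without both arrays 6 members had such a p (6.46% of all genes), 1 higher (2.99%) and 5 lower (3.47%). Mx-tumor lay wholly below Mx-liver on both slides for 7 members, Lrat, Hgf, Ngfr, Col14a1, Lum, Dcn and Tgfbi (11.8% of all genes), and wholly above it for Mmp14 and Timp1 (13.9% of all genes). With the arrays exchanged the same 7 lay below (12.9%), and Acta2, Tagln, Col4a1 and Col4a2 joined those above, which made 6 (14%).

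The same comparison in survivin-deleted mice, Mx+tumor against Mx+liver, gave differences of the same sign for Lrat, Hgf, Ngfr, Lum, Dcn and Timp1, each estimate smaller in size. At an unadjusted p under 0.05 stood 3 members (4.4% of all genes), of which 2 were higher (Timp1 and Mmp14; 1.76% of all genes) and Hgf was lower (2.64% of all genes). In all, 17 of 38 members were above 0 (44.2% of all genes), and 21 of 38 both with the arrays in doubt exchanged (45.4%) and without them (53.4%). The medians were -0.05 for members and -0.04 for all genes. Mx+tumor lay wholly below Mx+liver on both slides for 4 members, Lrat, Hgf, Pdgfra and Lum (11% of all genes), and above it for Timp1 (7.56%). After the exchange Lrat, Hgf, Lum and Dcn lay below (12.9%) and Timp1 above (9.37%). With the 2 arrays in doubt exchanged, 8 members had an unadjusted p under 0.05 by limma (6.85% of all genes). These were Timp1, Mmp14, Loxl2 and Col4a2, which were higher (2.91%), and Dcn, Lum, Ngfr and Hgf, which were lower (3.94%). Hgf stands in these counts on the basis given above, as a gene kept only through liver. The members' median was -0.38 without Mx+tumor replicate 2 and without Mx+liver replicate 2, 0.11 without Mx+liver replicate 3 and 0.17 without Mx+liver replicate 1. Since the tissues were measured in bulk, fewer cells of a type and less RNA per cell cannot be told apart.

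**Figure D1:**
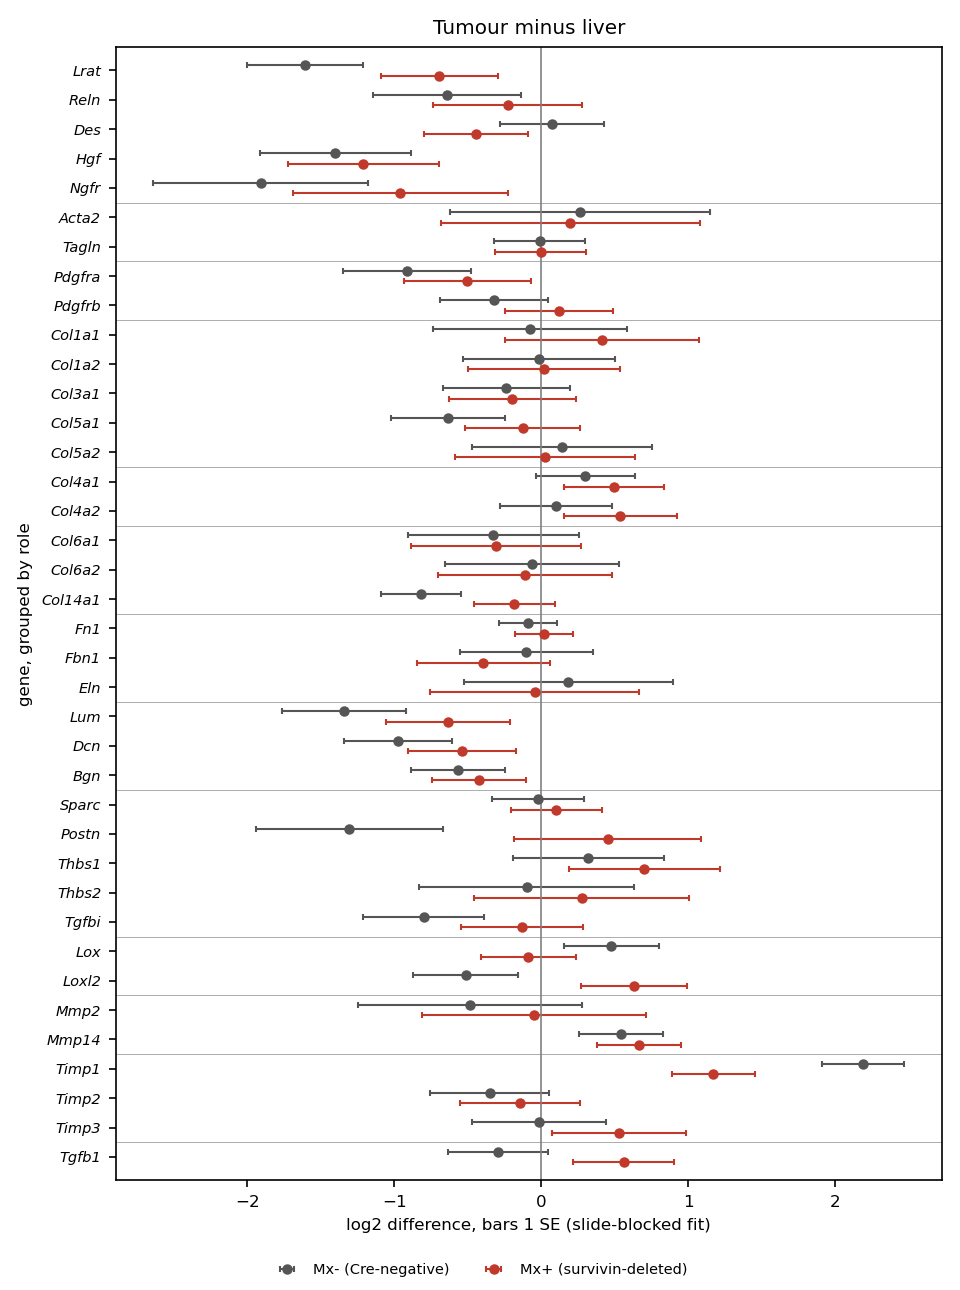
Difference between tumour and liver (log2, horizontal axis) for each of the 38 genes, in role order, in Cre-negative (grey) and survivin-deleted (red) mice; points are estimates of the slide-blocked limma fit and bars are 1 SE. Timp1 stands to the right at 2.19 and 1.17, Lrat, Hgf, Ngfr, Lum and Dcn lie to the left in both genotypes, and Col1a2 lies at -0.02 and 0.02.

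Lrat, lecithin retinol acyltransferase, makes the retinyl esters that stellate cells store and is a defining marker of the resting cell. It read 0.49, 0.29 and 0.01 in Mx-liver, -0.68, -0.42 and -0.20 in Mx+liver, -0.71, -0.91 and -2.41 in Mx-tumor, and -0.96, -1.59 and -0.83 in Mx+tumor. All 3 Mx-liver arrays were above all 9 others, and the tumour arrays were below the liver arrays of their genotype. The difference between Mx-tumor and Mx-liver was -1.61 (SE 0.40, 3.05-fold lower, limma unadjusted p = 0.00244, adjusted p = 0.751). It was -0.69 (SE 0.40, limma unadjusted p = 0.112) in the Mx+ pair. In Cre-negative mice it lay between -1.90 and -1.09 over 23 alternative settings, with an unadjusted p under 0.05 in 23 of them.

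Hgf encodes hepatocyte growth factor, a mitogen that stellate cells supply to hepatocytes. Its levels were -2.41, -3.82 and -3.56 in Mx-liver and -3.26, -3.51 and -3.27 in Mx+liver. In tumour they were -3.30, -4.77 and -5.93 (Mx-tumor) and -3.70, -5.89 and -4.09 (Mx+tumor), so that on each slide the tumours were below the livers of their genotype. The estimates were -1.40 (SE 0.51) in Cre-negative and -1.21 (SE 0.51) in deleted mice. The probe was well above background on 3 of 3 arrays in each liver group and on 2 of 3 in each tumour group, so that it was kept only through the groups where it was brighter. It drops out when every array must pass, and these estimates are a description. Without Mx+tumor replicate 2 the second was -0.71, and without Mx-tumor replicate 3 the first was -0.94.

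Ngfr, the low-affinity neurotrophin receptor p75, marks stellate cells among the cells of the liver. It read -1.04, -2.43 and -1.65 in Mx-liver, -2.43, -3.22 and -1.99 in Mx+liver, -1.25, -5.26 and -4.34 in Mx-tumor, and -2.36, -5.06 and -3.09 in Mx+tumor. The low values were those of slide 2, while the slide 1 array labelled Mx-tumor, 1 of the 2 in doubt, was close to its liver. The difference was -1.91 (SE 0.73, 3.76-fold lower, limma unadjusted p = 0.0261) in Cre-negative mice and -0.96 (SE 0.73, limma unadjusted p = 0.219) in deleted mice. With the arrays exchanged the differences were -2.31 and -1.35 (limma unadjusted p = 0.0018 and 0.032). Without Mx-tumor replicate 2 the first was -1.32 (limma unadjusted p = 0.112). Reln, the secreted glycoprotein reelin, gave -0.64 and -0.23, and Des, the intermediate filament desmin that stellate cells share with muscle, gave 0.07 and -0.45, none with an unadjusted p under 0.05 by limma. Des was highest of slide 2 on Mx+liver replicate 3 (-0.32), the array with skeletal muscle genes, and without that array the Mx+ difference was -0.07.

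**Figure D2:**
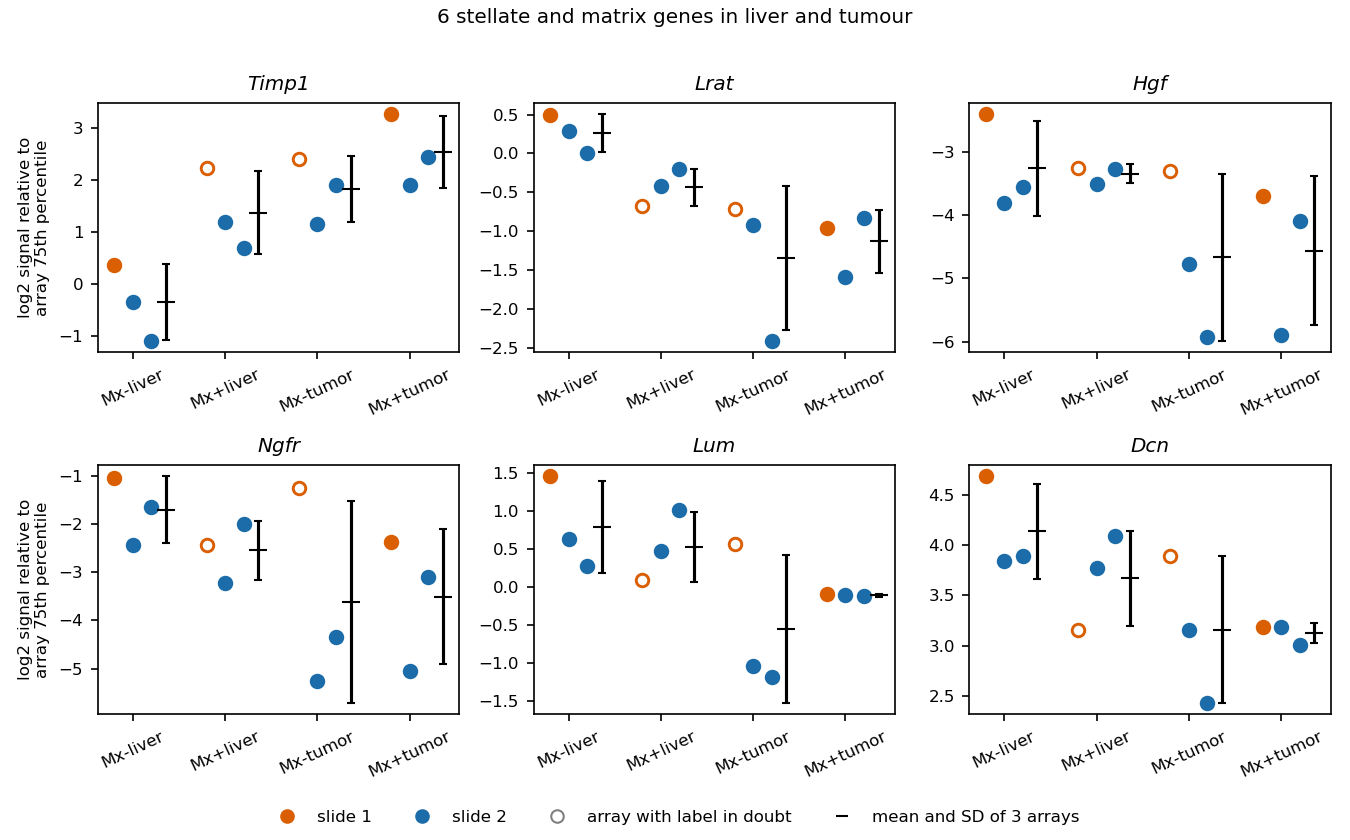
Level of Timp1, Lrat, Hgf, Ngfr, Lum and Dcn on each array (log2 signal relative to the 75th percentile of the array, vertical axis) by group; colour gives the slide, open circles are the 2 arrays whose labels are in doubt, and bars are the mean and SD of 3 arrays. Timp1 is lowest in Mx-liver (0.36 at most) and Lrat is highest there (0.01 at least).

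A wider list of 25 other stellate genes was read beside these members, and 23 were measured. In Mx-tumor against Mx-liver 18 were lower and 5 higher, with a median of -0.61, and 7 were lower at an unadjusted p under 0.05 by limma against 2.43% of all genes. The 4 with the smallest p were Tcf21 (-1.0), Hand2 (-1.43) and Lhx2 (-1.59), transcription factors of the stellate lineage, and Colec11 (-1.07), a secreted collectin. In the Mx+ pair 17 were lower and 6 higher, with a median of -0.40. Tcf21 (-0.79), Ntm (-1.17) and Lhx2 (-1.23) were lower there at an unadjusted p under 0.05 by limma, against 2.64% of all genes. Without Mx+tumor replicate 2, 1 gene of the list was lower at that threshold in the Mx+ pair (2.41% of all genes). Without Mx+liver replicate 3, 0 were (2.47% of all genes).

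Markers of other cells of the sinusoid were lower beside these genes in Cre-negative mice. The Kupffer and macrophage list (9 of 10 measured) was lower in Mx-tumor for 9 of 9 genes, with Vsig4 at -1.68. Of these, 3 had an unadjusted p under 0.05 by limma, where 2.43% of all genes were lower. The sinusoidal endothelial list (11 of 11) was lower for 11 of 11, 2 with such a p, Fcgr2b at -0.73 and Lyve1 at -0.69. In the Mx+ pair 4 of 9 and 3 of 11 were lower. The list mean ran from 1.53 to 2.53 in Mx-liver and 0.24 to 2.01 in Mx-tumor for macrophages, and from 0.67 to 1.10 and 0.16 to 0.85 for endothelium, and its part in the stellate difference was not tested. The hepatocyte list was lower for 7 of 10 genes, with a median of -0.15. The portal fibroblast list, another source of liver matrix, was higher for 6 of 6 genes in Mx-tumor, with a median of 0.16, and for 3 of 6 in the Mx+ pair. That pair includes Mx+liver replicate 3, the highest of slide 2 for 3 of the 6 genes. A list of 25 genes of TGF-beta and PDGF signalling had 14 higher and 11 lower in Mx-tumor (median 0.03) and 15 higher and 10 lower in the Mx+ pair (median 0.18). There Pdgfd, a PDGF-receptor ligand, was lower by -1.25 (limma unadjusted p = 0.00885).

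Acta2, the smooth muscle actin of activated stellate cells and vessel walls, gave no consistent order of groups. It read 1.46, 1.03 and 0.92 in Mx-liver, 2.44, -1.0 and 2.22 in Mx+liver, -0.01, 2.16 and 2.04 in Mx-tumor, and 1.44, 1.97 and 0.84 in Mx+tumor. Neither slide nor group took up this spread, and 98.4% of its sum of squares lay outside both. Tumour differed from liver by 0.26 and 0.20 (SE 0.88, limma unadjusted p = 0.773 and 0.828). With the arrays in doubt exchanged these became 1.08 and 1.02 (limma unadjusted p = 0.14 and 0.16). Tagln, an actin-binding protein of contractile cells, differed by -0.01 and -0.0047 (SE 0.31). On Mx+liver replicate 2 both genes, and 4 of 4 measured vascular smooth muscle markers, had their lowest level of slide 2.

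Of the PDGF receptors, Pdgfra was lower in tumour by -0.91 (SE 0.43, limma unadjusted p = 0.0617) in Cre-negative and by -0.50 (SE 0.43, limma unadjusted p = 0.273) in deleted mice. Pdgfrb, the receptor through which stellate cells respond to PDGF-B, differed by -0.32 and 0.12 (SE 0.37). Its slide explained 77.1% of its sum of squares and its group 2.21%.

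The fibrillar collagens, which form the scar, had tissue estimates on both sides of 0. In Mx-tumor against Mx-liver 1 of 5 was above 0 with a median of -0.08, and in the Mx+ pair 3 of 5 with a median of 0.02, and 0 had an unadjusted p under 0.05 by limma. Col1a1, the main chain of collagen I, read 2.82, 3.20 and 1.84 in Mx-liver, 3.95, 1.00 and 1.88 in Mx+liver, 2.87, 1.62 and 3.12 in Mx-tumor, and 2.32, 3.26 and 2.49 in Mx+tumor. Its highest and lowest values were both in Mx+liver, the highest on an array in doubt. The tissue differences were -0.08 and 0.41 (SE 0.66). Col1a2, its partner chain, differed by -0.02 and 0.02 (SE 0.52), Col3a1 by -0.24 and -0.20 (SE 0.43), Col5a1 by -0.64 and -0.13 (SE 0.39) and Col5a2 by 0.14 and 0.03 (SE 0.61). On Mx+liver replicate 2 all 5 fibrillar collagens had their lowest value of slide 2, so the spread was shared between genes of the group.

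The chains of collagen IV, the basement membrane collagen that vessels and sinusoids carry, had estimates above 0 in each pair. Col4a1 gave 0.30 and 0.50 (SE 0.34) and Col4a2 gave 0.10 and 0.54 (SE 0.38), with limma unadjusted p from 0.175 to 0.801. With the arrays exchanged Col4a2 was higher by 0.75 in the Mx+ pair (limma unadjusted p = 0.0436), and without Mx+tumor replicate 2 the Mx+ values were 0.12 and 0.09. Col14a1, a collagen that sits on the surface of fibrils, was lower by -0.82 (SE 0.27, 1.76-fold, limma unadjusted p = 0.0141) in Cre-negative mice and by -0.18 (SE 0.27) in deleted mice. Its levels were -1.14, 1.77 and 1.49 in Mx-liver and -2.49, 1.29 and 0.88 in Mx-tumor, a smaller step than the one between slides, which took 93.3% of its sum of squares. The second Col14a1 probe gave -0.79 and -0.62. Without Mx-liver replicate 1 the Cre-negative difference was -0.62 (limma unadjusted p = 0.0694). The beaded-filament collagens Col6a1 (-0.33 and -0.31) and Col6a2 (-0.07 and -0.11) had an SE of 0.58 and 0.59. Without Mx+tumor replicate 2 Col6a1 was lower by -1.04 in the Mx+ pair (limma unadjusted p = 0.038).

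Fibronectin (Fn1), which hepatocytes also secrete, had tissue differences of -0.09 and 0.02 (SE 0.20). Its 12 values lay between 4.64 and 5.84. Fibrillin (Fbn1) gave -0.10 and -0.39 (SE 0.45) and elastin (Eln) 0.18 and -0.05 (SE 0.71), the latter near background on 2 arrays.

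The small leucine-rich proteoglycans, which bind collagen fibrils and set their spacing, were below liver in 3 of 3 genes in each genotype, with medians of -0.98 and -0.54. Lumican (Lum) read 1.46, 0.63 and 0.28 in Mx-liver, 0.09, 0.47 and 1.01 in Mx+liver, 0.57, -1.04 and -1.19 in Mx-tumor, and -0.09, -0.11 and -0.13 in Mx+tumor. Within each slide every tumour array was below the livers of its genotype. The difference was -1.34 (SE 0.42, 2.54-fold lower, limma unadjusted p = 0.00997) in Cre-negative mice and -0.63 (SE 0.42, limma unadjusted p = 0.164) in deleted mice. The first had an unadjusted p under 0.05 in 23 of 23 alternatives, with differences from -1.86 to -1.10.

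Decorin (Dcn), which also binds TGF-beta, read 4.68, 3.84 and 3.89 in Mx-liver, 3.15, 3.77 and 4.08 in Mx+liver, 3.89, 3.16 and 2.43 in Mx-tumor, and 3.18, 3.18 and 3.01 in Mx+tumor. The Mx+liver array below the rest of its group is replicate 1, whose label is in doubt. Tumour was lower by -0.98 (SE 0.37, 1.97-fold, limma unadjusted p = 0.0243) and by -0.54 (SE 0.37, limma unadjusted p = 0.171). Without both arrays in doubt the Mx+ difference was -0.95 for Dcn and -1.02 for Lum (limma unadjusted p = 0.012 and 0.0095). Mx+liver is then replicates 2 and 3, and replicate 3, the array with muscle and adipocyte genes, was the highest of slide 2 for both. Leaving out only that array, the Mx+ differences were -0.27 and -0.28. Without Mx-tumor replicate 3 the Cre-negative difference of Dcn was -0.65 (limma unadjusted p = 0.111), and without Mx-liver replicate 1 it was -0.75 (limma unadjusted p = 0.108). Biglycan (Bgn) was lower by -0.57 and -0.42 (SE 0.32), neither with an unadjusted p under 0.05 by limma.

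Matricellular proteins, which modulate cell contacts rather than bear load, were mixed. Tgfbi, a TGF-beta-induced adhesion protein, gave -0.80 (SE 0.41) and -0.13. Postn, periostin, gave -1.31 (SE 0.64) and 0.45, and its low Mx-tumor mean rested on replicate 1 (-5.43 against -1.16 and -0.32), an array in doubt on which the probe was not well above background. Without both arrays in doubt Postn differed by -0.32 and -0.10. Sparc, a collagen-binding protein, gave -0.02 and 0.10 (SE 0.31). The thrombospondins gave 0.32 and 0.70 for Thbs1 (SE 0.51), whose product activates latent TGF-beta, and -0.10 and 0.27 for Thbs2 (SE 0.73). A ligand gene, Tgfb1, gave -0.29 and 0.56 (SE 0.34). In none of these cases was the limma unadjusted p under 0.05.

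Timp1, the inhibitor that blocks most matrix metalloproteinases and is induced in injured liver, had the highest group share of the 38 genes, with 77.1% of its sum of squares between groups against a median of 11.1% over members and 15.8% over all genes. It read 0.36, -0.34 and -1.10 in Mx-liver, 2.24, 1.20 and 0.68 in Mx+liver, 2.41, 1.16 and 1.91 in Mx-tumor, and 3.27, 1.90 and 2.45 in Mx+tumor. Every Mx-liver array was below all 9 others, and Mx+liver and Mx-tumor overlapped. The group means were -0.36 ± 0.73, 1.37 ± 0.79, 1.83 ± 0.63 and 2.54 ± 0.69 (SD, n = 3). Tumour exceeded liver by 2.19 (SE 0.28, 4.56-fold, limma unadjusted p = 1.77e-05, adjusted p = 0.469) in Cre-negative mice. In deleted mice it exceeded liver by 1.17 (SE 0.28, 2.25-fold, limma unadjusted p = 0.00210, adjusted p = 0.903). Both differences kept their sign in 23 of 23 alternatives and had an unadjusted p under 0.05 in 23 and 22 of them. The Timp1 probe lies at mm9 chrX:20451802-20451861.

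Timp2 (-0.35 and -0.15, SE 0.41) and Timp3 (-0.01 and 0.53, SE 0.46) are inhibitors of the same family, and neither had an unadjusted p under 0.05 by limma. Mmp14, a membrane-bound collagenase that activates Mmp2, was higher by 0.54 (SE 0.29, limma unadjusted p = 0.0863) and 0.66 (SE 0.29, 1.58-fold, limma unadjusted p = 0.0436). It read -1.27, 1.85 and 1.34 in Mx-liver against -0.78, 2.04 and 2.30 in Mx-tumor, and -0.43, 2.14 and 1.47 in Mx+liver against 0.32, 2.71 and 2.12 in Mx+tumor. The Mx+ difference was 0.78 with the arrays in doubt exchanged and 0.74 without them (limma unadjusted p = 0.0144 and 0.0618). Without Mx+liver replicate 3 it was 0.43 (limma unadjusted p = 0.186), and without Mx+tumor replicate 1 it was 0.47 (limma unadjusted p = 0.178). Slide took 86.3% of its sum of squares, and within each slide Mx-tumor was above Mx-liver. Mmp2, gelatinase A, gave -0.49 and -0.05 (SE 0.76). Of the crosslinking enzymes, Lox gave 0.48 and -0.09 (SE 0.32) and Loxl2 gave -0.52 and 0.63 (SE 0.36), and the second Lox probe had the opposite sign in Cre-negative mice (-0.40). The other Loxl2 probes gave -0.24 and -0.97 in Cre-negative mice, and 0.01 and -0.42 in deleted mice, where the probe used gave 0.63.

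Survivin deletion in tumour, Mx+tumor against Mx-tumor, was compared next. Matrix genes read higher in Mx+tumor in the mean, but this rested on Mx+tumor replicate 2. As measured, 31 of 38 members were above 0 (47.4% of all genes), with a median of 0.23 against -0.02 over all genes. Without that array 14 of 38 were above 0 (44.5% of all genes), with a median of -0.09 against -0.04 over all genes. With the arrays in doubt exchanged 24 of 38 were above 0 (47.2%), and without both 26 of 38 (55.9%). At an unadjusted p under 0.05 by limma stood 2 members as labelled (7.9% of all genes), and 1 with the arrays exchanged (9.01%). As labelled, Loxl2 and Timp1 were higher (3.46%) and 0 members were lower (4.45%). Loxl2 was also the member for which Mx+tumor was above Mx-tumor on both slides (8.88% of all genes), and 0 members were below it on both (13.1%). After the exchange of arrays Loxl2 was above (9.03%) and Acta2 below (13%). On slide 2 alone, which holds neither array in doubt, 2 other members had an unadjusted p under 0.05 by limma (18.7% of all genes). Lum was higher by 0.996 and Tgfbi by 1.15 (limma unadjusted p = 0.00421 and 0.0478), where 9.99% of all genes were higher. Loxl2 was then 0.42 and Timp1 0.64 (limma unadjusted p = 0.0982 and 0.155).

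Mx+tumor replicate 2 was the highest of the 8 arrays of slide 2 for 19 of 38 members and for 24.3% of all genes. Mmp2 was among them, with -2.89, -0.04 and -3.10 in Mx+tumor and -2.19, -3.40 and -3.01 in Mx-tumor. Thbs2 read -5.60, -2.30 and -4.68 in Mx+tumor, Col6a2 -3.84, -0.39 and -2.43, and Tgfb1 -1.06, 1.12 and -0.41. Without this array the deletion difference of Mmp2 went from 0.85 to -0.10, of Thbs2 from 0.46 to -0.41, of Col6a2 from 0.47 to -0.28 and of Tgfb1 from 0.46 to -0.01. The same array was highest of slide 2 for 4 of 5 T cell markers and 17 of 36 other matrix genes, and had the lowest hepatocyte mean (4.93). The part of these cells in the matrix values was not tested.

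**Figure D3:**
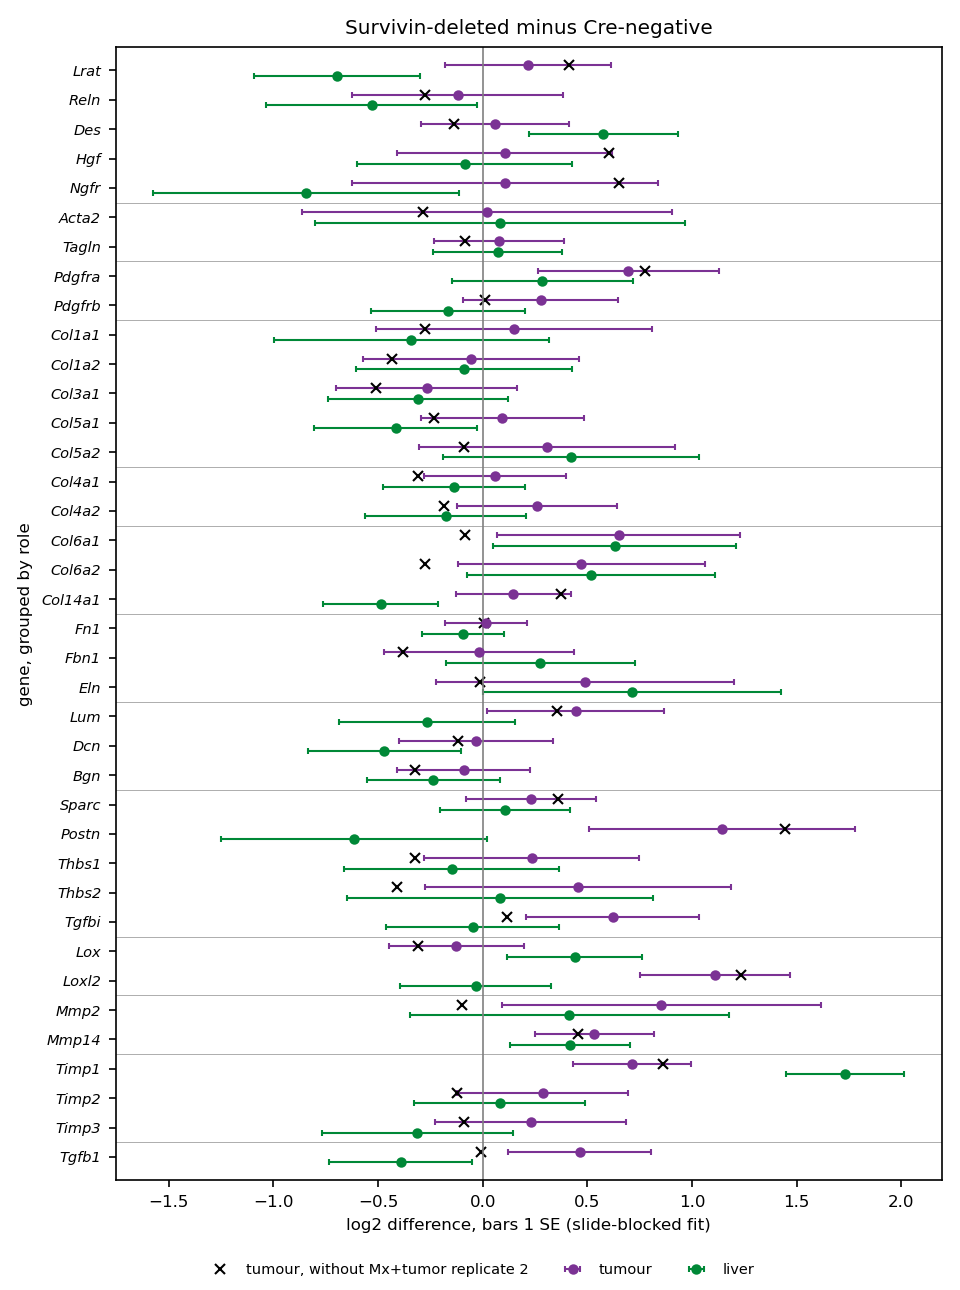
Difference between survivin-deleted and Cre-negative samples (log2, horizontal axis) for the 38 genes, in tumour (purple) and in liver (green), with bars of 1 SE from the slide-blocked limma fit; crosses give the tumour difference without Mx+tumor replicate 2. Timp1 lies at 1.73 in liver and 0.71 in tumour, and the crosses of Mmp2, Col6a1, Col6a2 and Thbs2 fall below 0.

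Loxl2, a lysyl oxidase that crosslinks collagen IV and fibrillar collagens, read -1.89, 0.13 and 0.56 in Mx-tumor and 0.60, 0.89 and 0.65 in Mx+tumor, beside -0.73, 0.57 and 0.51 in Mx-liver and -0.70, 0.28 and 0.67 in Mx+liver. The low Mx-tumor value was that of replicate 1, an array in doubt. Deletion went with a level higher by 1.11 (SE 0.36, 2.16-fold, limma unadjusted p = 0.0118, adjusted p = 0.578). Without both arrays in doubt it was 0.60 (limma unadjusted p = 0.090), and with them exchanged 0.71 (limma unadjusted p = 0.088). Without Mx+tumor replicate 1 it was 0.64 (limma unadjusted p = 0.0613). The other 2 Loxl2 probes gave 0.66 and 0.45.

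Timp1 was higher in Mx+tumor by 0.71 (SE 0.28, 1.64-fold, limma unadjusted p = 0.0303, adjusted p = 0.615), and by 0.86 without Mx+tumor replicate 2 (limma unadjusted p = 0.024). It had an unadjusted p under 0.05 in 16 of 23 alternatives, and was 0.64 (limma unadjusted p = 0.111) without both arrays in doubt and 0.55 (limma unadjusted p = 0.116) without Mx-tumor replicate 2. The quiescent stellate genes gave 0.22 for Lrat, 0.10 for Hgf, 0.11 for Ngfr, 0.06 for Des and -0.12 for Reln, with SEs of 0.35 to 0.73. The fibrillar collagens had a median of 0.09 with 3 of 5 above 0. That split was 0 of 5 with the arrays exchanged (median -0.34), 0 of 5 without Mx+tumor replicate 2 (-0.27) and 4 of 5 without both arrays in doubt (0.18). Postn was higher by 1.15 (SE 0.64), and by 0.16 without both arrays in doubt. Lum, 0.44 as labelled (SE 0.42), was higher by 0.83 without both arrays in doubt (limma unadjusted p = 0.0237).

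Among other genes of the matrix, 28 of 36 measured (of 38 listed) were above 0, with a median of 0.32, and 20 of 36 without Mx+tumor replicate 2, with a median of 0.12. Emilin1, a glycoprotein of elastic fibres, was higher by 1.30 (limma unadjusted p = 0.00498). In Mx-tumor against Mx-liver it was lower by -1.12 (limma unadjusted p = 0.0112). Both differences use the same Mx-tumor arrays, including the array in doubt, and are not separate evidence. Of 19 other proteases and inhibitors, 15 were above 0, and 8 of 19 without Mx+tumor replicate 2. Mmp7, matrilysin, an epithelial protease, was higher by 3.60 in tumour (limma unadjusted p = 9.83e-04) and by 2.56 in liver (limma unadjusted p = 0.00833). Pdgfd, a PDGF-receptor ligand, was lower by -1.35 in tumour (limma unadjusted p = 0.00573). Of 16 genes of collagen processing, 11 were above 0 with a median of 0.29, and 0 had an unadjusted p under 0.05 by limma.

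Survivin deletion in non-cancerous liver, Mx+liver against Mx-liver, left 1 member, Timp1, at an unadjusted p under 0.05 by limma (11.8% of all genes). It was higher by 1.73 (SE 0.28, 3.33-fold, limma unadjusted p = 1.20e-04, adjusted p = 0.416), where 8.37% of all genes were higher at an unadjusted p under 0.05 and 3.46% lower. The Mx+liver arrays (2.24, 1.20 and 0.68) did not overlap the Mx-liver arrays (0.36, -0.34 and -1.10; two-sided exact permutation p = 0.1, below which this design cannot go). Its unadjusted p was under 0.05 in 23 of 23 alternatives, with differences from 1.53 to 1.94, and it was 1.91 without Mx+liver replicate 3 and 1.79 with the arrays exchanged. In all, 16 of 38 members were above 0 (55.1% of all genes), with a median of -0.09 against 0.05, and 9 of 38 were above 0 without Mx+liver replicate 3 (57% of all genes). Without Mx+liver replicate 2 the members' median was 0.20. With the arrays in doubt exchanged 11 of 38 were above 0 (57.2%), and without both 17 of 38 (54%). After the exchange 2 members had an unadjusted p under 0.05 by limma (9.32% of all genes), 1 higher (5.34%) and 1 lower (3.98%).

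Lrat was lower in Mx+liver by -0.70 (SE 0.40, limma unadjusted p = 0.111), with arrays that did not overlap. On both slides Mx+liver lay below Mx-liver for Lrat and Tgfb1 (13.3% of all genes) and above it for Timp1 (15.1%). When the arrays were exchanged Reln, Col4a1, Col4a2 and Bgn joined those below, which made 6 (13.7%), and Timp1 lay above (16.4%). Ngfr was lower by -0.84 (SE 0.73) and Des higher by 0.58 (SE 0.35), which was 0.20 without Mx+liver replicate 3. Of the fibrillar collagens 4 of 5 were below 0, with a median of -0.31. Mx+liver replicate 2 was the lowest of slide 2 for 15 of 38 members, against 9.88% of all genes. The estimates of Eln (0.72), Col6a1 (0.63), Col6a2 (0.52) and Mmp2 (0.41) were 0.19, 0.29, 0.24 and -0.04 without Mx+liver replicate 3. With the arrays in doubt exchanged Reln was lower by -1.09 (limma unadjusted p = 0.0196), against -0.53 as labelled.

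**Figure D4:**
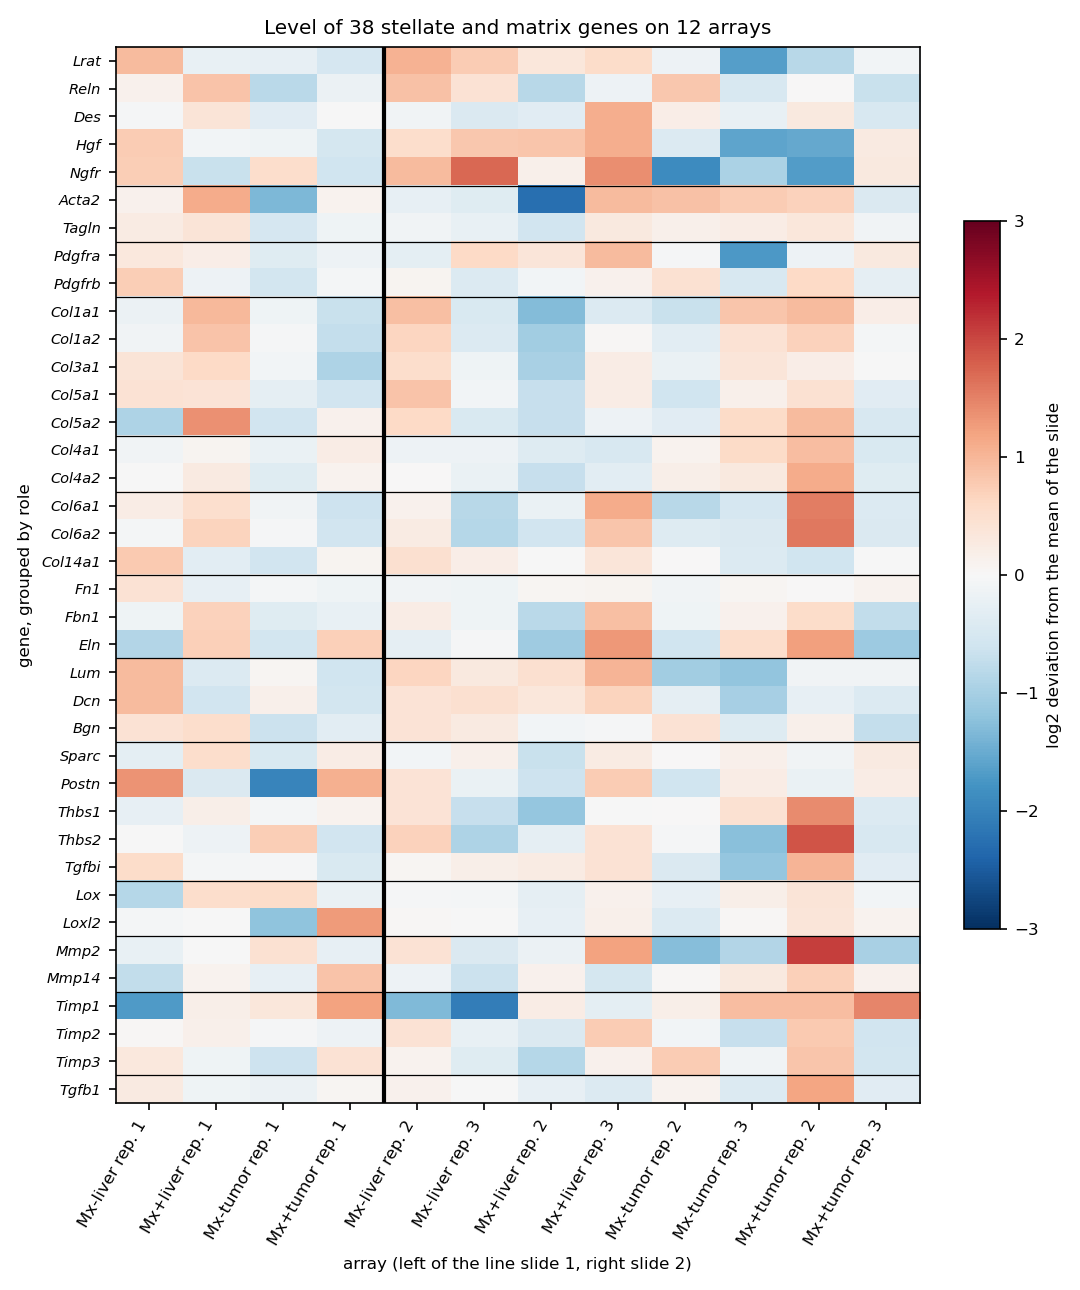
Deviation of each gene's log2 level from its mean on the same slide (colour), for 38 genes in role order (rows) and 12 arrays (columns, slide 1 left of the line). The column of Mx+tumor replicate 2 is warm through most matrix genes, that of Mx+liver replicate 2 is cool through the fibrillar collagens, and Timp1 is cool in the Mx-liver columns of both slides.

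The last comparison was the difference between the deletion change in tumour and that in liver. Timp1 gave -1.02 (SE 0.40, limma unadjusted p = 0.0291, adjusted p = 0.912), a smaller step in tumour than in liver, with an unadjusted p under 0.05 in 12 of 23 alternatives. Without Mx+tumor replicate 2 it was -0.87 (limma unadjusted p = 0.0689), and without both arrays in doubt -1.02 (limma unadjusted p = 0.0909). Loxl2 gave 1.14 (SE 0.51, limma unadjusted p = 0.0488, adjusted p = 0.912), with an unadjusted p under 0.05 in 6 of 23 alternatives. Without both arrays in doubt it was 0.49 (limma unadjusted p = 0.32). The other 2 Loxl2 probes gave 0.25 and 0.56 (limma unadjusted p = 0.567 and 0.448). Timp1 and Loxl2 were the 2 members with an unadjusted p under 0.05 (3.29% of all genes), 1 higher (0.849% of all genes) and 1 lower (2.44%). A value above 0 was found for 30 of 38 members against 43.6% of all genes, with a median of 0.29 against -0.06, and for 19 of 38 (42.1% of all genes) with a median of 0.02 without Mx+tumor replicate 2. It was 30 of 38 with the arrays in doubt exchanged (43.6%) and without both (51.5%), and without both 0 members had an unadjusted p under 0.05 by limma (2.04% of all genes). This difference shares its arrays with the comparisons above and is no separate evidence.

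Across the 12 arrays, slide, group and the remainder took a median of 26.2%, 11.1% and 49.6% of the sum of squares of a member, and 48.6%, 15.8% and 29.2% of that of all genes. Group took over 40% for Timp1 (77.1%), Lrat (67.6%), Lum (52.1%), Dcn (51.2%), Hgf (41.2%) and Bgn (40.3%). The remainder was highest for Acta2 (98.4%) and Col1a2 (97.0%).

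**Figure D5:**
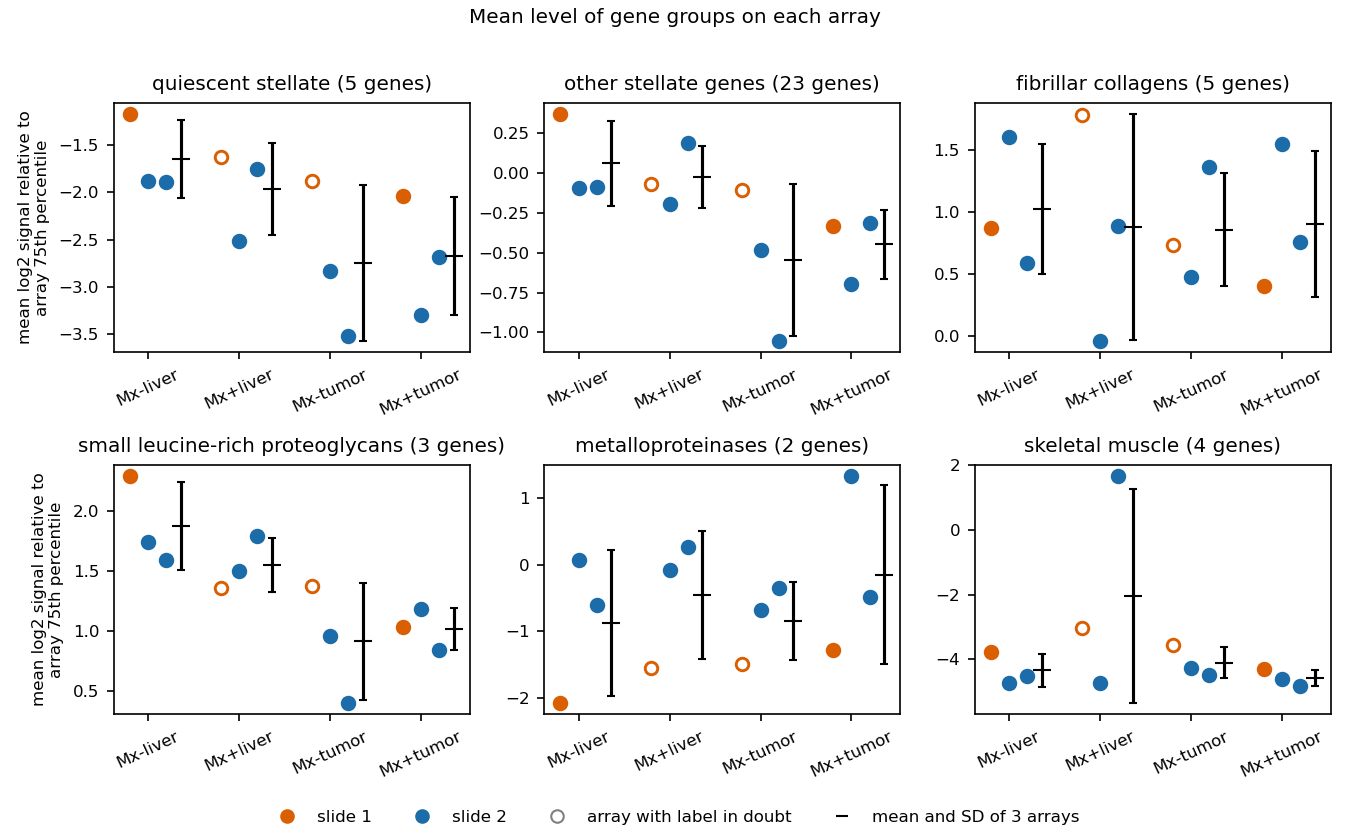
Mean level of 6 gene groups on each array (mean log2 signal relative to the array's 75th percentile, vertical axis); colours, open circles and bars as in the plot of single genes. The proteoglycans span 1.59 to 2.29 in Mx-liver and 0.40 to 1.38 in Mx-tumor. In the same groups the quiescent stellate genes span -1.89 to -1.17 and -3.52 to -1.88, which overlap only at their ends with both slides pooled. The fibrillar collagens span 0.59 to 1.61 and 0.48 to 1.37, and the skeletal muscle genes reach 1.66 on Mx+liver replicate 3.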

How the data were processed

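Feature Extraction 10.7 output, per the submitters' processing notes, was read for each of the 12 arrays; the authors deposited it as scanner files, and its processed intensity per spot was used. The series' value table was used as an alternative. Its deposited log2 values equal log2 processed intensity shifted so that an array's 75th percentile is near 0, as found by comparison with the scanner files; the column medians lie between -3.27 and -2.52, and how the authors made it is not given in the sources used here. Spots without outlier flags were averaged by probe (55681 probes), and log2 values were set relative to the 75th percentile of non-control probes. A probe entered when one group had it well above background on each array. Where a gene had several, its brightest probe by mean was taken. Limma 3.58.1 in R 4.3.3 fitted 4 group means and a slide term (7 residual degrees of freedom); p-values were adjusted by Benjamini-Hochberg over 26506 genes, with a threshold of 0.05. The fit was also run on simulated data, and the outcome is not given here. The simulated noise was independent for each gene and array, so deviations shared by many genes of an array were not covered.

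All members are named; of other lists up to 4 genes per comparison, by smallest unadjusted p, and Birc5; one such gene is not reported here. Members, lists and tests were chosen with earlier results of these data known. The 23 alternatives changed the normalization (quantile), background (normexp, offset 50), dim-probe filter (none, or every array), probe summary, slide term (none, replicate number, slide 2 alone), source (value table) and arrays (2 exchanged, both in doubt dropped, each dropped in turn). These alternatives share their arrays, and the value table itself carries the exchange of the 2 arrays in doubt. They are therefore not separate checks. Promoters came from RefSeq (GRCm38.p6), probe positions (mm9) from the array design. The number of arrays limits the precision.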

Additional observations from a re-analysis of the deposited data

How the results depend on the processing

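In all alternatives run, 0 members passed an adjusted p of 0.05 by limma in any of the 5 comparisons; the counts at an unadjusted p under 0.05 as labelled were 7, 3, 2, 1 and 2 (tumour against liver in Cre-negative and in deleted mice, deletion in tumour, deletion in liver, and the difference of the last pair). The replicate numbers pair arrays through the slide: correlations of same-numbered deviations from the group means were 0.279 to 0.737 over 18 pairs, but -0.0908 to 0.284 within slide 2, with 4 of 12 over 0.1. With the replicate number as a block, the members' medians were unchanged at -0.17, -0.05, 0.23, -0.09 and 0.29, and 7, 3, 2, 1 and 1 members had an unadjusted p under 0.05. Without a slide block these counts were 4, 0, 0, 1 and 0. The share of all genes is not given for either of these block settings. Their counts are therefore not read as a result about the members. Leaving out each array in turn moved the medians over -0.43 to -0.13, -0.38 to 0.17, -0.09 to 0.39, -0.17 to 0.20 and 0.02 to 0.48. Dim probes, of which 8 members had some, and 3 arrays per group limit what these values can show.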
